A study of Mus musculus with 2 samples.

Results

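Mir208a, Mir208b and Mir499 are 3 microRNA (miRNA) genes that lie inside introns of myosin heavy chain genes. They were taken as the rows of the deposited count files whose Ensembl gene identifiers carry these symbols in the GENCODE M21 annotation, and all 3 members were found among 2202 gene rows. The RNA came from male mice of the F1 hybrid strain B6CASTF1/J at 25 days of age and was taken from the gastrocnemius, a calf muscle in which fast fibres prevail. The labels give no treatment and form 1 group of 2 libraries with an RNA size range below 30. They number the libraries as biological replicates and name different males, yet carry the same donor identifier for both, so every spread between replicates may be technical. The design holds no contrast between conditions, and each test compares the reads of 2 libraries.

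A miRNA is cut from a hairpin in a longer transcript, and its bases 2 to 8, the seed, pair with target messenger RNAs and lower their output. Myh6 encodes the fast cardiac myosin heavy chain, Myh7 the slow cardiac and skeletal chain, and Myh7b a further slow-type chain, so each of the miRNAs is made along with a myosin transcript. In mouse, miR-208a is known from heart muscle. The miRNAs miR-208b and miR-499 are known from heart and from slow skeletal fibres, where they support the slow fibre programme by lowering repressors of slow genes.

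The sequences show how closely the 3 miRNAs are related. The arm known as the active strand is shown for each, from RefSeq (GRCm38.p6, the same assembly as mm10), written 5′ to 3′ with the seed in capitals:
miR-208a-3p: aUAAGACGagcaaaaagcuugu
miR-208b-3p: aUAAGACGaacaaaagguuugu
miR-499-5p: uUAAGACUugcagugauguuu
The miR-208a and miR-208b strands have 1 seed, UAAGACG. Over their 22 bases, counted from 1 at the 5′ end, 19 are identical (86.4%), and the changes from miR-208a-3p to miR-208b-3p are G10A, A16G and C18U. The miR-499 seed, UAAGACU, shares bases 2 to 7 with them and departs from miR-208a-3p at base 8 (G8U). Over its whole length, seed included, miR-499-5p had 12 of 21 bases identical to miR-208a-3p and 10 of 21 to miR-208b-3p, aligned from the 5′ end without gaps. Among the 1738 mature miRNAs of the RefSeq table, these 3 were the only ones with UAAGAC at bases 2 to 7.

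The hairpins from which these strands are cut are given with the strands above in capitals, since every read counted for a member comes from this stretch of the genome:
Mir208a: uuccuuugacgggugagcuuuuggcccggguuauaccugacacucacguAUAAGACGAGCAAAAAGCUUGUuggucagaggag
Mir208b: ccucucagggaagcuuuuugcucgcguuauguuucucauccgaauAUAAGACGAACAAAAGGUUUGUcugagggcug
Mir499: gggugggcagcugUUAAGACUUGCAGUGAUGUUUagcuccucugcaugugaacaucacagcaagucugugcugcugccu
The active strand is cut from the 3p arm of both Mir208 hairpins and from the 5p arm of Mir499. Gene rows do not separate the arms, so each count holds reads of either. Across the guide sequences the longest stretch found in another annotated miRNA hairpin, on either strand, was 14 bases for miR-208a-3p, 12 for miR-208b-3p and 11 for miR-499-5p. None of the members had a run of 20 bases in common with a different miRNA gene, and within GENCODE transcripts each whole guide sequence was found in its own gene only. The genome outside these transcripts was not searched.

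Mir208a (ENSMUSG00000065432.1, mm10 chr14:54949060-54949142, minus strand) lies in intron 29 of Myh6, and Mir208b (ENSMUSG00000077928.1, chr14:54975700-54975776, minus strand) in intron 31 of Myh7. The Mir208 genes are 26.6 kb apart, since Myh6 and Myh7 are neighbours on the same strand. Mir499 (ENSMUSG00000076312.1, chr2:155622880-155622958, plus strand) lies in intron 19 of Myh7b on chromosome 2. Each hairpin is on the strand of its host, in a short intron of 542, 461 and 481 bases for Mir208a, Mir208b and Mir499. The distance to the exon upstream was 195, 102 and 158 bases in the same order. No other miRNA gene overlapped a member, and the members had 0 counts on the opposite strand in both libraries, which allows up to 2.01 CPM (gene counts scaled to a library total of 1000000) in replicate 1 and 1.48 in replicate 2.

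The gene rows held 1491341 counts for replicate 1 and 2028332 for replicate 2, so 1 count is worth 0.671 and 0.493 CPM. Reads that aligned to several loci were 69.8% and 71.8% of all reads and stand in no gene row. The skeletal muscle miRNA gene Mir206 was the seventh most abundant gene at 53367 and 46543 CPM, so a defining miRNA gene of the labelled tissue was present. The levels below leave out any reads of these genes at several loci, and fewer muscle fibres of a type cannot be told apart from less of the miRNA per fibre in whole tissue.

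Mir499 was the most abundant member and Mir208a was close to the detection limit. Mir499 had 499 counts in replicate 1 and 1084 in replicate 2, or 335 CPM (exact 95% Poisson interval 306 to 365) and 534 CPM (503 to 567). Its mean was 435 ± 141 CPM (SD, n = 2). Mir208b had 136 and 454 counts, or 91.2 CPM (76.5 to 108) and 224 CPM (204 to 245), with a mean of 158 ± 93.8 CPM (SD, n = 2). Mir208a had 5 and 9 counts, or 3.35 CPM (1.09 to 7.82) and 4.44 CPM (2.03 to 8.42), with a mean of 3.89 ± 0.767 CPM (SD, n = 2). For Mir499 and Mir208b replicate 2 was the higher library and the intervals of the libraries did not overlap, whereas for Mir208a they overlapped. The order Mir499, Mir208b, Mir208a was the same in both libraries, and no range of one gene over the libraries touched that of another.

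**Figure D1:**
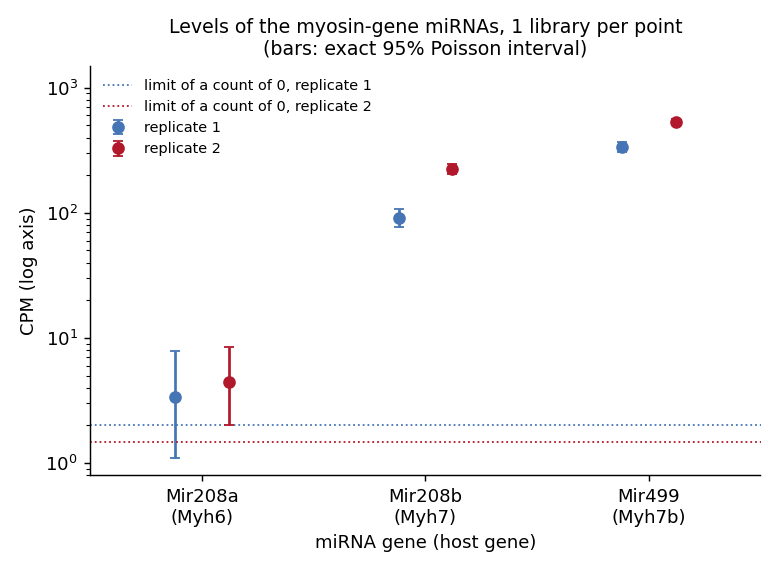
CPM on a log axis for Mir208a, Mir208b and Mir499, with 1 point per library and exact 95% Poisson intervals as bars. Dotted lines mark the one-sided limit that a count of 0 allows. Mir208b and Mir499 stand well above those lines with separate intervals in the 2 libraries, and the intervals of Mir208a (1.09 to 7.82 and 2.03 to 8.42 CPM) overlap each other and, in replicate 1, the line.

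Among all 2202 gene rows, of which 570 had a count in at least 1 library, Mir499 ranked 86 by mean CPM, Mir208b 136 and Mir208a 297. Mir499 ranked 98 in replicate 1 and 81 in replicate 2, and Mir208b 163 and 124. Next to Mir499 in this order were Mir409 and Mir381 above, at 445 ± 24.1 and 444 ± 70.9 CPM, and Mir107 and Mir181d below, at 428 ± 66.1 and 427 ± 37.2 CPM (SD, n = 2 each). Next to Mir208b were Mir467d and Mir30c-2 above, at 165 ± 19.6 and 162 ± 14.8 CPM, and Mir18 and Mir615 below, at 157 ± 42.5 and 154 ± 10.3 CPM. None of these neighbours differed from its member by more than the SD of that member. Mir208a had the same counts as Mir7035 and lay between Mir702 and Mir219a-2, all of which had 9 counts or fewer in each library. The spread between the libraries, as a coefficient of variation, was 32.5% for Mir499 and 59.5% for Mir208b, above that of each of their 8 neighbours (27.1% or less, highest in Mir18).

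The genes of the striated muscle list were set beside these levels, by reads at a single locus only. Of 10 listed genes 9 had a row under the listed name, and 8 of these had a count. Mir206 had 79589 and 94404 counts, Mir486, a miRNA gene in the ankyrin gene Ank1, 1227 and 1372, and Mir1a-2 660 and 775. Mir499 thus lay above Mir1a-2 by mean CPM (412 ± 42.8 for the latter), below it in replicate 1 and above it in replicate 2. Mir133a-1, Mir133b, Mir1a-1, Mir133a-2 and Mir1b had 43 counts or fewer in each library and Mir133c had none. In 7 of the 9 genes a run of 20 bases recurs, on either strand, in a different miRNA gene, which was so for no member. Such a run can come from a gene on the opposite strand at the same place, as Mir1b lies over Mir1a-2. That overlap does not exclude a copy elsewhere, and Mir1a-1 on chromosome 2 has such a run too. Mir133a-1 on chromosome 18 and Mir133a-2 on chromosome 2 have one as well. How many reads of the listed genes went to the class with several loci was not measured, so the levels of the list and of the members may not be like for like. The order of Mir499 and Mir1a-2 therefore holds for reads at a single locus and gives no order of the miRNAs in muscle.

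**Figure D2:**
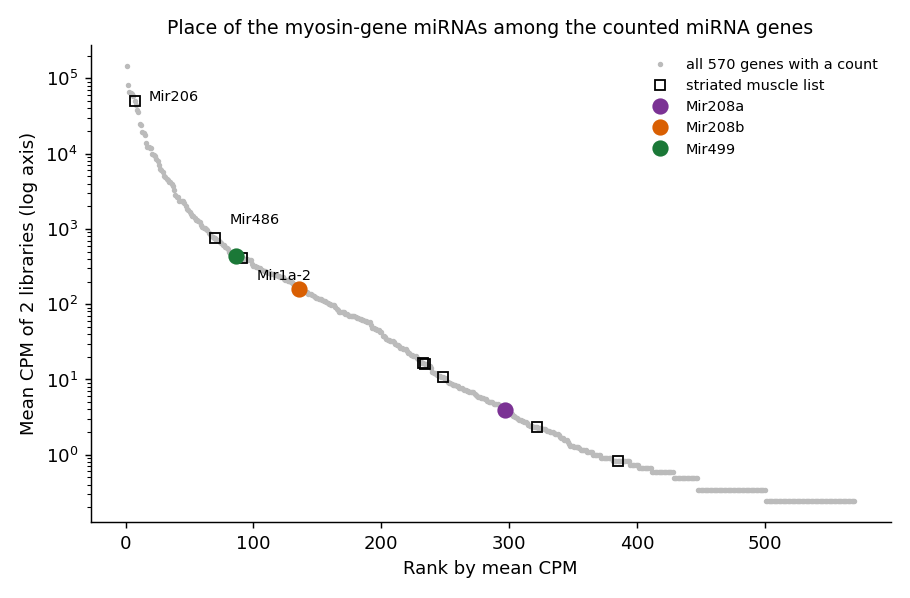
Mean CPM of 2 libraries on a log axis against rank for the 570 miRNA genes with a count, with the members as filled circles and the striated muscle list as open squares. Mir499 sits at rank 86 between Mir486 and Mir1a-2, Mir208b at 136 and Mir208a at 297.

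Within a library the members can be compared with no scaling between libraries. The guides are 21 or 22 bases long, so counts were not divided by length. In replicate 1 Mir499 held 78.0% of the 640 counts of the 3 genes (exact 95% binomial interval 74.6 to 81.1), Mir208b 21.2% (18.1 to 24.6) and Mir208a 0.781% (0.254 to 1.81). In replicate 2 Mir499 held 70.1% of 1547 counts (67.7 to 72.3), Mir208b 29.3% (27.1 to 31.7) and Mir208a 0.582% (0.266 to 1.10). The balance between Mir499 and Mir208b differed between the libraries beyond counting error, and the spread between libraries is not in these intervals. Since Mir208a holds so little, the shares of Mir499 and Mir208b are complements and show this difference once.

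The ratio of Mir499 to Mir208b counts was 3.67 in replicate 1 (exact 95% binomial interval 3.03 to 4.47) and 2.39 in replicate 2 (2.14 to 2.67). The ratio of Mir208b to Mir208a, the neighbours on chromosome 14 that share a seed, was 27.2 (11.4 to 85.1) and 50.4 (26.3 to 111), and that of Mir499 to Mir208a was 99.8 (42.5 to 309) and 120 (63.2 to 264). Only the first of these pairs had intervals that did not overlap. As mean log2 ratios they came to 1.57 ± 0.44, 5.21 ± 0.63 and 6.78 ± 0.19 (SD, n = 2). The Mir208 genes together had 141 and 463 counts, nearly all from the Myh7 intron, against 499 and 1084 for Mir499. These are sums over both arms of each hairpin and give no level for a seed.

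**Figure D3:**
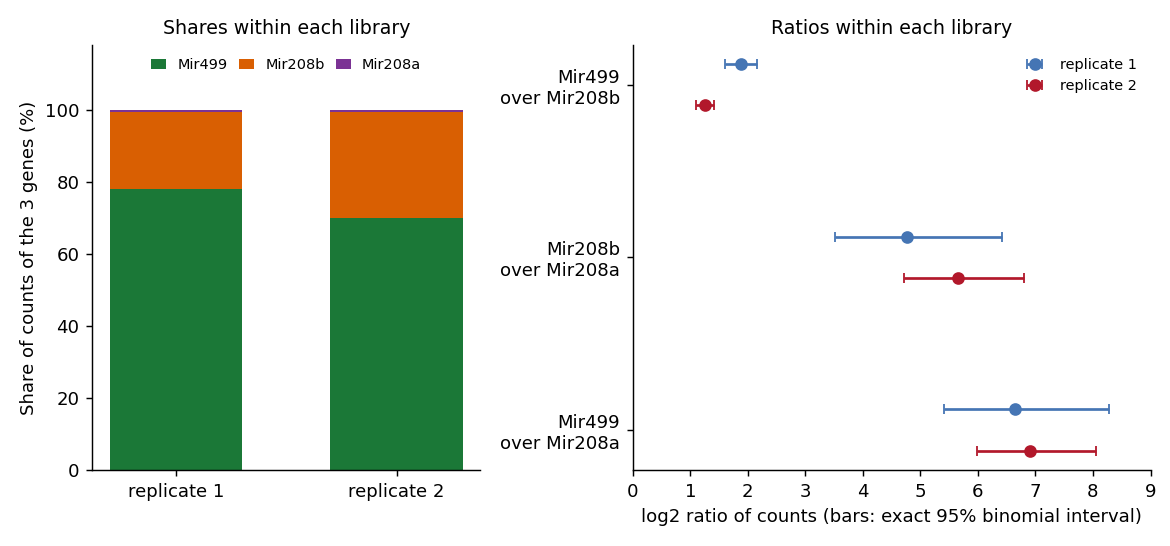
Left, the share of each member in the counts of the 3 genes for each library, in percent. Right, log2 ratios of counts between members within each library with exact 95% binomial intervals, where the intervals of the libraries are apart for Mir499 over Mir208b (ratios 3.67 and 2.39) and overlap for the ratios to Mir208a.

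Between the libraries, 2 of 3 members differed beyond counting error, and both were higher in replicate 2. Counts were compared by a two-sided exact binomial test after TMM scaling (trimmed mean of M-values, a factor that centres most genes on no change), with Benjamini-Hochberg adjustment over the 313 genes whose counts, added over the libraries, came to 10 or more. By this rule 38.7% of tested genes differed, 16.9% higher and 21.7% lower in replicate 2, so a call alone sets no gene apart here. Mir208b was 2.39-fold higher (1.97 to 2.92), a log2 ratio of 1.26 (95% limits 0.98 and 1.54) with an adjusted p of 1.55e-20 by the binomial test. Mir499 was 1.56-fold higher (1.40 to 1.73), a log2 ratio of 0.64 (0.48 and 0.79) with an adjusted p of 4.38e-16 by the binomial test. The intervals of these ratios did not overlap, which restates from the same counts the difference in balance within the libraries. Mir208a had a ratio of 1.29 (0.388 to 4.90), a log2 ratio of 0.37 (-1.37 and 2.29) with an adjusted p of 0.870 by the binomial test. Its interval holds no change as well as the ratios of both other members, so at this depth a difference like theirs was not detectable.

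The size of the difference places Mir208b near the edge of the data. Over all 313 tested genes the median log2 ratio was 0.00 and the middle 50% ran from -0.29 to 0.33. Of 196 tested genes with at least 100 counts in a library, 6 were over 2-fold apart and 23 over 1.5-fold, and Mir208b was among the former while the 23 included Mir499. In that set Mir208b ranked 3 and Mir499 11 by ratio. With the spread between the libraries added to counting error, no gene passed by edgeR's exact negative binomial test (0 of 313, or 0%), and 14 genes had an unadjusted p under 0.05. The values were an adjusted p of 0.155 for Mir208b (unadjusted 0.00165) and of 1 for Mir499 (unadjusted 0.0909) and Mir208a (edgeR exact negative binomial test). That spread, a coefficient of variation of 17.9%, was estimated from the same libraries over 267 genes and so contains the differences tested.

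**Figure D4:**
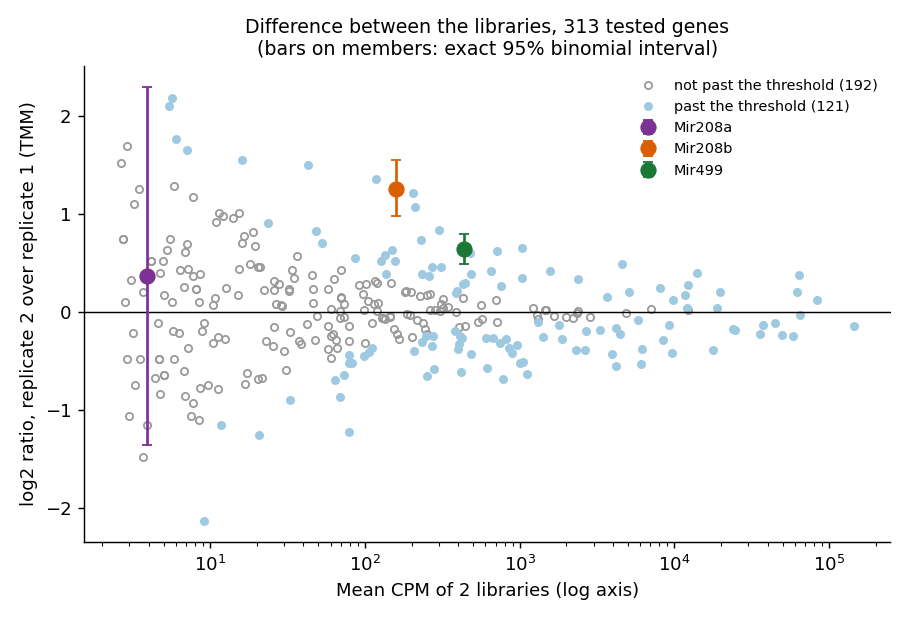
Log2 ratio of replicate 2 over replicate 1 after TMM against mean CPM on a log axis for 313 tested genes, filled where the exact binomial test passed (121) and open where it did not (192), with exact 95% intervals on the members. Mir208b at 1.26 lies at the upper edge of genes of its level, Mir499 at 0.64 lies above the middle 50% of genes, and the interval of Mir208a spans 0.

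The genes whose ratio lay nearest to a member were taken from those with at least 100 counts in a library, and with 2 libraries this likeness rests on a single value per gene. Nearest to Mir208b were Mir136, an imprinted miRNA gene of the Dlk1-Dio3 region (181 and 586 counts, log2 ratio 1.21), Mir101a (97 and 346 counts, 1.35) and Mir451a, a miRNA gene of red blood cells (201 and 587 counts, 1.06). Nearest to Mir499 were Mir29a (1182 and 2584 counts, 0.65), Mir376b of the same imprinted region (172 and 371 counts, 0.63) and Mir27a (825 and 1770 counts, 0.62). None of these 6 genes is in the striated muscle list.

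The striated muscle list was mixed, with its abundant genes lower in replicate 2. By the exact binomial test, 3 of its 6 tested genes were lower in replicate 2 and no gene was higher. Over all 313 tested genes, 21.7% were lower and 16.9% higher. The other 3 listed genes (Mir133a-1, Mir133b and Mir1a-1) failed the threshold with log2 ratios of 0.78, 0.71 and 0.14. Those of Mir133a-1 and Mir133b are above that of Mir499 but rest on 18 counts each in replicate 1. The median log2 ratio of the list was -0.05, which turned to 0.04 when all reads of the file set the scale. It was 0.42 in the column without strand (4 genes tested), 0.38 with no filter (8 genes) and 0.19 with the list itself as the scale. Summed over the list, replicate 1 had 54668 CPM and replicate 2 had 47659 CPM, of which Mir206 alone made up 97.6% and 97.7%, so the sum and any scaling to it follow Mir206. Mir206, Mir486 and Mir1a-2 had log2 ratios of -0.24, -0.32 and -0.25 (binomial test adjusted p = 6.33e-248, 9.36e-08 and 0.00385). The call for Mir1a-2 ended when all reads of the file set the scale (binomial test adjusted p = 0.0772). The listed Mir486b had no row under its name. A row named Mir3107 had 43 and 25 counts, equal to those on the opposite strand of Mir486. Its log2 ratio was -1.26 (binomial test adjusted p = 0.00158), and the values of the list leave it out. Scaled to the summed counts of this list, a setting chosen after the data were seen, Mir208b and Mir499 had log2 ratios of 1.49 and 0.87 (binomial test adjusted p = 3.32e-29 and 8.45e-30), while the median of all tested genes moved up to 0.24. In that setting the 3 lower calls ended, with Mir206 at 0.00, and Mir133a-1 and Mir133b were called higher.

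Markers of other cell types in muscle also differed between the libraries. By the exact binomial test 38.7% of all 313 tested genes differed, 16.9% higher and 21.7% lower in replicate 2. The calls below therefore set no list apart by themselves. Both erythroid genes were higher in replicate 2, where the pair summed to 355 CPM against 174 CPM in replicate 1. Both tested genes of smooth muscle and pericytes were higher as well (58855 and 78690 CPM summed over 3 genes), and so was the endothelial Mir126a (78275 and 87525 CPM). Of 5 leukocyte genes 2 were higher and 3 lower (3619 and 2900 CPM summed), of 4 tested fibroblast genes 2 were higher and 1 lower (11500 and 13078 CPM over 5 genes), and of 3 tested neuronal genes 1 was higher and 1 lower (1480 and 1554 CPM over 9 genes, of which 5, all of the Mir124a genes with Mir9-1 and Mir9-2, had no count). The satellite cell genes Mir31 and Mir489 had 12 and 1 counts in replicate 1 and 18 and 0 in replicate 2. The erythroid and smooth muscle directions held under every scaling tried, and the lower neuronal gene, Mir128-2, kept its call with DESeq2 size factors, with TMM over genes without a shared stretch and in the column without strand, and lost it in every other setting. The fibroblast genes had a median log2 ratio of -0.13 although their sum was higher in replicate 2. By edgeR's exact negative binomial test none of these markers and none of the striated muscle genes passed. The part of these cell types in the ratios of Mir208b and Mir499 was not tested.

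The direction for Mir208b and Mir499 was the same in every setting tried for all tested genes. Set against Mir133a-1 or Mir133b alone, which had few counts, Mir499 was not higher in replicate 2. Over 11 settings, the reported one among them, Mir208b ranged from 1.21 to 1.49 and Mir499 from 0.63 to 0.87 on the log2 scale, and both passed in each setting that used the exact binomial test. The lowest value for Mir208b was obtained after removal of a linear trend with hairpin GC content, which is 45.5% for Mir208b, 49.4% for Mir208a and 51.9% for Mir499. Mir208a ranged from 0.36 to 0.60 over 10 settings and passed in none.

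**Figure D5:**
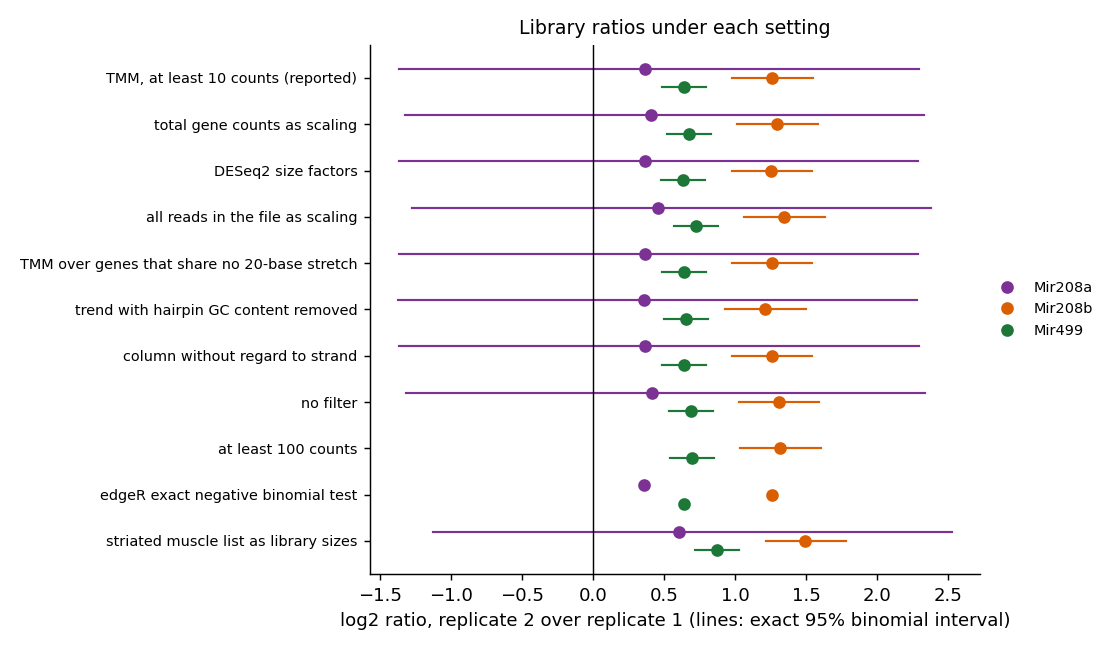
Log2 ratio of replicate 2 over replicate 1 for each member under the reported setting and each alternative, with exact 95% binomial intervals where the test gives one. Mir208b stays between 1.21 and 1.49, Mir499 between 0.63 and 0.87, and every interval of Mir208a spans 0.

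The promoters of Myh7 and Myh7b, the hosts of Mir208b and Mir499, are shown as background. Host transcripts were not measured here, and a link between these sequences and the library ratios was not tested. Each run covers 250 bases before to 50 after the RefSeq start (GRCm38.p6), 5′ to 3′ on the strand of the gene. Capitals mark matches on either strand to CATTCC (the MCAT element bound by TEAD factors) and CANNTG (the general E-box pattern, forms of which myogenic factors bind):
Myh7 (chr14:54994577-54994876, minus strand): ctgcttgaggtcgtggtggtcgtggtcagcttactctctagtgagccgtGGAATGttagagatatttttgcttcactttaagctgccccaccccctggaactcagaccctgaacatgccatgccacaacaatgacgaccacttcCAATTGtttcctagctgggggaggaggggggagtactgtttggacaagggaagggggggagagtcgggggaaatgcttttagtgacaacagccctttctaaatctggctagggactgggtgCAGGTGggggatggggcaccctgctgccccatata
Myh7b (chr2:155610993-155611292, plus strand): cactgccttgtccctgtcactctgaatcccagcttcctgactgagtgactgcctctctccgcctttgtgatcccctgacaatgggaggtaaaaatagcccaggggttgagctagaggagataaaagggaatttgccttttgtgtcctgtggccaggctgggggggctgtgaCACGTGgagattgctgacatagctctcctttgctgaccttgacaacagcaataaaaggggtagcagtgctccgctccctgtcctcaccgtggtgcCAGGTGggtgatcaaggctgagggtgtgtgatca
Each window held 2 E-box matches, CAATTG and CAGGTG in Myh7 and CACGTG and CAGGTG in Myh7b. An E-box match was present in 72.3% of the 32851 promoter windows of the table. The Myh7 window held 1 MCAT match, on the opposite strand, the Myh7b window held none, and 14.7% of all windows held one. The Myh6 window held 1 match to each. None of the windows chosen for the 3 hosts matched the MEF2 motif, which was present in 0.557% of windows. Myh7 had 2 windows, and its matches are given only for the one at the start of its annotated GENCODE transcript. All matches are letters in a window and were not measured here as binding sites.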

How the data were processed

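Small RNA libraries of 2 gastrocnemius samples were analysed. The deposited values are raw counts of reads per miRNA gene, 1 file per library, assigned to mm10 with GENCODE M21 per the deposited file descriptions. The sources used here do not give the aligner, trimming or mismatch settings. From the values, the 3 columns count reads without strand, on the gene strand (used here) and on the opposite strand. The 4 summary rows stayed out of library sizes and tests, and unaligned reads were 8.11% and 5.99% of all reads, reads outside miRNA genes 2.21% and 1.64%. Gene rows leave out reads with several loci, so genes with near-identical copies may be undercounted.

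All 2202 identifiers had a symbol in GENCODE M21, and all 3 members matched the RefSeq miRNA table. CPM used gene-strand totals. TMM factors came from edgeR 4.0.16 (R 4.3.3) over the 313 tested genes, with a threshold of 0.05 on the adjusted p. With 1 group no quasi-likelihood contrast exists. Intervals are exact at the 95% level and hold only the error of counting reads. Reads copied by PCR do not stand for separate molecules, so the error in counted molecules may be larger. A count of 0 allows 3 counts. The alternatives covered scaling (including DESeq2 1.42.0 size factors), strand column, filter, GC trend and test. On simulated libraries of 316 genes the binomial step called 33 of 45 genes changed 1.5-fold, 26 of 31 changed 2-fold, 37 of 41 changed 4-fold and 3 of 199 unchanged genes. The simulated counts were Poisson draws with counting error only. These rates therefore check the calculation and give no rate of false calls for libraries with further spread, as the real ones have.

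The members and lists were chosen with earlier results of these data known. Named genes were the members, the striated muscle list, the 2 genes above and 2 below each member by mean CPM, the 3 genes nearest in ratio to each member that passed, and genes with the members' seed. Cell type lists were erythroid, endothelial, smooth muscle and pericyte, fibroblast, leukocyte, neuronal and satellite cell. Mir486b had no row under that name, and rows under other names were not added to the lists.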

Additional observations from a re-analysis of the deposited data

How the results depend on the processing

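The calls for Mir208b and Mir499 held under each scaling, filter and strand column tried, and ended with the edgeR exact negative binomial test, where the log2 ratios were 1.26 and 0.64 and 0 genes passed in place of 121. Levels depend on the denominator. In the column without strand, whose totals are smaller, Mir208a had 5.21 CPM and Mir499 581 CPM. Scaled to all reads in the file in place of gene counts, Mir208a, Mir208b and Mir499 had 0.791, 32.1 and 88.3 per 1000000 reads. On the total of genes that share no 20-base stretch they had 6.86, 278 and 766 CPM. From single libraries the levels ran from 3.35 to 4.44, 91.2 to 224 and 335 to 534 CPM, and the log2 ratios within a library from 1.26 to 1.88 for Mir499 over Mir208b, 4.77 to 5.66 for Mir208b over Mir208a and 6.64 to 6.91 for Mir499 over Mir208a. Among called genes, 43.8% were higher in replicate 2 after TMM, 59.7% with all reads as the scale and 81.6% with the striated muscle list as the scale, the last setting having been chosen after the data were seen. Mir208a had too few counts for the filter of 100 counts, and a ratio between the libraries cannot be formed without one of them. No paired analysis was possible because the libraries form 1 group. Depth limits Mir208a most, with 14 counts over both libraries.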

Other observations

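Set against single skeletal muscle miRNA genes of the same library, with no scaling between libraries, Mir208b had 1.71 counts per 1000 counts of Mir206 in replicate 1 and 4.81 in replicate 2, and Mir499 had 6.27 and 11.5. Per 1000 counts of Mir486 the values were 111 and 331 for Mir208b and 407 and 790 for Mir499. Mir208a had 0.0628 and 0.0953 counts per 1000 counts of Mir206. Mir206 and Mir486 were themselves called lower in replicate 2. Against Mir133a-1 and Mir133b, which had 43 counts or fewer in each library, the ratio of Mir499 was no higher in replicate 2. It was 27.7 counts per count of Mir133a-1 in replicate 1 and 25.2 in replicate 2, and 27.7 and 26.4 per count of Mir133b. No interval was set on these ratios, and with so few reference counts they cannot show whether Mir499 differed. Mir208b had 7.56 and 10.6 counts per count of Mir133a-1, and 7.56 and 11.1 per count of Mir133b. The 5p arms of the Mir208 hairpins also have a common seed, AGCUUUU, in miR-208a-5p and miR-208b-5p, and how many of the counted reads came from those arms was not analysed here.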
